A study of Mus musculus with 9 samples.

Results

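Messenger RNA of the mitotic kinases was followed through liver regeneration in mice. The 10 genes were chosen by name, as *Cdk1*, *Plk1*, *Plk4*, *Aurka*, *Aurkb*, *Bub1*, *Bub1b*, *Ttk*, *Nek2* and *Melk*, and all 10 were found among the 43346 genes listed and passed the expression filter. Whole liver of male C57/BL6 mice aged 12 weeks was profiled by RNA-Seq in 3 groups of 3 samples. The question was how the SHP2 inhibitor NSC-87877 (NSC) changes the response to surgery. The labels do not say whether vehicle tissue at 0 h and at 40 h came from the same mice. The baseline group holds the tissue that 70% partial hepatectomy removed from vehicle-treated mice at 0 h, and the 2 other groups hold the regenerating remnant 40 h later under vehicle or under NSC. By the paper's methods the median and left lateral lobes were removed, so comparisons against baseline also compare different lobes. Mice received 7.5 mg/kg of NSC i.p. at each of 2 daily injections, the 1st of them 12 h before surgery by the sample records, and the vehicle was saline. All 3 groups carried no engineered allele. NSC is also an inhibitor of SHP1, so the NSC group does not isolate SHP2. The same 3 vehicle specimens served as baseline for both 40 h groups, and tissue removed from NSC mice at surgery was not analysed here. A difference with NSC at 40 h thus cannot be told apart from one present before surgery.

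Mitotic kinases are enzymes that carry a cell from G2 through division. CDK1, bound to cyclins, drives entry into mitosis, Polo-like and Aurora kinases build the spindle and mature the centrosomes, and BUB1, BUBR1 and TTK form the checkpoint that delays anaphase until each chromosome is attached. Their transcripts are scarce in quiescent tissue such as adult liver and are made mainly in G2 and mitosis, and after partial hepatectomy the hepatocytes of the remnant re-enter the cell cycle nearly in step.

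Libraries held 23997363 to 42887589 counts, and the floor, taken as 3 counts, lay at 0.070 to 0.125 in CPM, the count scaled to its library. The 10 hepatocyte markers, among them *Alb* at 38781 to 48259 FPKM (the same scaled also to gene length), were high in all 9 libraries, with summed levels of 121337 to 126188 CPM at baseline, 101642 to 120960 CPM in vehicle livers at 40 h and 107461 to 123340 CPM in NSC livers. In whole tissue, fewer dividing cells and less RNA per dividing cell cannot be told apart. Calls required a log2 fold change beyond 1.5 in either direction and an adjusted p (Benjamini-Hochberg) under 0.05 in an edgeR quasi-likelihood fit of all 9 libraries. Single hepatocyte markers were less steady than their sum, with median log2 fold changes against baseline of -0.42 with vehicle and -0.61 with NSC. By these calls 2 of the 10 were lower than baseline with NSC, against 2.75% of all genes, and 0 with vehicle.

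Promoters of mitotic genes often carry a cell cycle genes homology region (CHR), which the MuvB complexes bind, and CCAAT boxes, which NF-Y binds. The RefSeq promoter table (GRCm38.p6) held 9 of the 10 kinase genes, all but *Aurkb*, with 250 bases before and 50 after the RefSeq start of each gene. In this paragraph the start is that RefSeq start, which is not always the start of the gene as deposited. TTTGAA or TTCGAA, read as a CHR on either strand, occurred in 6 of these 9 windows and in 19.2% of all 32851 windows. CCAAT, on either strand, occurred in 7 of 9 and in 37.4% of all windows, and 6 of 9 held both, against 7.52% of all windows. *Plk4* and *Melk* held neither, and *Nek2* held CCAAT only. Overlaps with other motifs were allowed, and a match describes letters in a window, not a bound site. The 100 bases before the start are shown for 5 genes with both motifs and for *Plk4* with neither, with capitals marking CCAAT, its reverse complement ATTGG, and TTTGAA.
Cdk1 (chr10:69352913-69353012, minus strand): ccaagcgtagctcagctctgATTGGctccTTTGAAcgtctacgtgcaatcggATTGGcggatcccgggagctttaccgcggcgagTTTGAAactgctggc
Plk1 (chr7:122159335-122159434, plus strand): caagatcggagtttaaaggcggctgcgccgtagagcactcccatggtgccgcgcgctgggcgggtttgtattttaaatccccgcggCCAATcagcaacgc
Aurka (chr2:172370571-172370670, minus strand): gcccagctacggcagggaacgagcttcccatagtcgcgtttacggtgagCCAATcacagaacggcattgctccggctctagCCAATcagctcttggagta
Bub1 (chr2:127831860-127831959, minus strand): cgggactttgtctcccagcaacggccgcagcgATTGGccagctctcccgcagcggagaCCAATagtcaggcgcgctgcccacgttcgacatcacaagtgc
Ttk (chr9:83834589-83834688, plus strand): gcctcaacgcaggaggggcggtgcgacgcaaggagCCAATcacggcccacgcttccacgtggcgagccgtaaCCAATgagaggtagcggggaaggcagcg
Plk4 (chr3:40799851-40799950, plus strand): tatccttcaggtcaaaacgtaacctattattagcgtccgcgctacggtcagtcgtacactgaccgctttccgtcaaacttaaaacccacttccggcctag
In *Cdk1* the CHR letters began at positions -71 and -15, the base before the start being -1, and in *Bub1*, *Plk1*, *Aurka* and *Ttk* they lay after the start. The 30 bases around those sites, and around that of *Bub1b*, are shown next, with the CHR in capitals, which in *Ttk* is TTCAAA because the match was on the reverse strand.
Plk1 (chr7:122159453-122159482, plus strand): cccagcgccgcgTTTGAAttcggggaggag
Aurka (chr2:172370521-172370550, minus strand): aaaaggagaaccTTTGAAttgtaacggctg
Bub1 (chr2:127831828-127831857, minus strand): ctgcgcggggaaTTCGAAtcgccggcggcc
Bub1b (chr2:118598231-118598260, plus strand): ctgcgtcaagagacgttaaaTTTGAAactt
Ttk (chr9:83834684-83834713, plus strand): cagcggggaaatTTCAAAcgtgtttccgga
Counted from the RefSeq start as +1, these letters began at position 31 in *Plk1*, 33 in *Aurka*, 15 in *Bub1*, 41 in *Bub1b* and 8 in *Ttk*, and *Bub1b* held a further TTCGAA at -188. The deposited *Aurka* gene begins at 172370535 on its minus strand, so its CHR letters lie before that start. The deposited *Cdk1* gene begins at 69352938 on its minus strand, so its CHR letters at -15 lie after that start.

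All 10 kinase transcripts rose after hepatectomy in both treatments. In vehicle livers, 10 of 10 were called higher than baseline, with a median log2 fold change of 5.73, where 5.03% of the 15024 genes tested were called higher and the median of all genes was 0.01. In NSC livers, 10 of 10 were also called higher, with a median of 6.60, against 5.38% of all genes and a median of 0.01. Every vehicle liver at 40 h lay above every baseline liver for 10 of 10 kinases (24.2% of all genes), and every NSC liver did so for 10 of 10 (24% of all genes). *Nek2* was the kinase whose calls against baseline were lost under some alternatives, with vehicle when any baseline liver or vehicle replicate 1 or 2 at 40 h was left out or the replicate block was added, and with both treatments under GC correction with that block. Directly compared at 40 h, 0 of 10 kinases were called between NSC and vehicle livers by edgeR or by DESeq2, and 0 of 10 had an unadjusted p under 0.05 in edgeR, where 19.5% of all genes did, while all 10 estimates were higher with NSC, as were 51.5% of all genes.

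**Figure D1:**
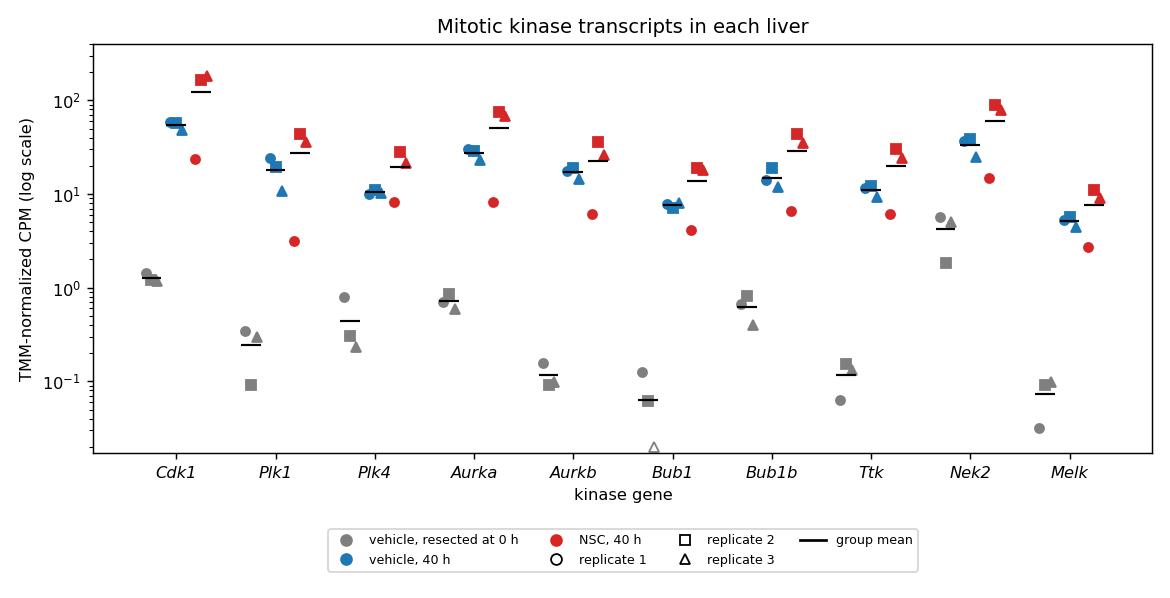
TMM-normalized CPM of the 10 kinase transcripts in each of the 9 livers, on a log axis, with colour for the group, marker shape for the replicate number and a bar for the mean of 3 livers. The open triangle at the lower edge is the baseline library in which *Bub1* had 0 counts, and NSC replicate 1 sits below the vehicle livers at 40 h for every kinase while NSC replicates 2 and 3 sit above them.

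*Cdk1* (ENSMUSG00000019942, chromosome 10, 69336635 to 69352938, minus strand) encodes the kinase that, with cyclins A and B, triggers mitosis. It was at 1.42, 1.22 and 1.19 CPM in the baseline livers and at 58.1, 56.8 and 48.8 CPM in the vehicle livers at 40 h. In NSC replicates 1, 2 and 3 it was at 23.8, 166 and 184 CPM. Both 40 h groups lay wholly above baseline, and the NSC livers fell on either side of the vehicle livers. The means were 1.28 ± 0.126, 54.6 ± 5.06 and 124 ± 87.5 CPM (SD, n = 3 each). The log2 fold change against baseline was 5.41 (standard error 0.78, adjusted p = 0.00303) with vehicle and 6.60 (standard error 0.82, adjusted p = 0.00107) with NSC in edgeR. The direct difference at 40 h was 1.19 with a 95% interval of -0.27 to 2.64 (adjusted p = 0.334, edgeR), the highest estimate among the kinases.

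*Plk1* (ENSMUSG00000030867, chromosome 7, 122159437 to 122169875, plus strand), whose product acts at centrosomes, kinetochores and the cleavage furrow, was at 0.348, 0.0916 and 0.297 CPM at baseline and at 24.2, 19.7 and 10.7 CPM in vehicle livers at 40 h. With NSC it was at 3.15, 43.4 and 36.1 CPM. The vehicle livers were the most uneven of any kinase, with a coefficient of variation of 37.6%, and NSC replicate 1 was below the lowest of them. *Plk1* rose by 6.20 on the log2 scale with vehicle (standard error 1.16, adjusted p = 0.00929) and by 6.80 with NSC (standard error 1.18, adjusted p = 0.00455; edgeR). NSC and vehicle differed by 0.59, with an interval of -1.32 to 2.5 (adjusted p = 0.722, edgeR).

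*Plk4* (ENSMUSG00000025758, chromosome 3, 40800019 to 40816883, plus strand) encodes the Polo-like kinase that starts centriole duplication around the onset of S phase. Its baseline levels were 0.790, 0.305 and 0.231 CPM, its vehicle levels at 40 h 10.1, 10.9 and 10.4 CPM and its NSC levels 8.19, 27.8 and 21.7 CPM. The vehicle livers lay closer together than for any other kinase (coefficient of variation 4.0%), and NSC replicate 1 was only just below them. The log2 fold change was 4.55 with vehicle (standard error 0.54, adjusted p = 0.000640) and 5.43 with NSC (standard error 0.55, adjusted p = 0.000189) by edgeR's test. Between treatments it was 0.88, with an interval of -0.08 to 1.83 and the smallest adjusted p of the 10 kinases at 0.289 (edgeR).

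Of the Aurora kinases, *Aurka* (ENSMUSG00000027496, chromosome 2, 172356190 to 172370535, minus strand) encodes the enzyme of the centrosome and spindle poles. It went from 0.695, 0.855 and 0.594 CPM at baseline to 30.1, 29.2 and 23.1 CPM with vehicle and 8.19, 76.0 and 67.5 CPM with NSC. *Aurkb* (ENSMUSG00000020897, chromosome 11, 69045647 to 69051664, plus strand), the enzyme of the chromosomal passenger complex, went from 0.158, 0.0916 and 0.0990 CPM to 17.7, 19.2 and 14.4 CPM with vehicle and 6.12, 35.5 and 26.2 CPM with NSC. Neither 40 h group overlapped baseline for either gene, and again the NSC livers stood on both sides of the vehicle livers. *Aurka* had log2 fold changes of 5.25 (standard error 0.86, adjusted p = 0.00503) and 6.13 (standard error 0.88, adjusted p = 0.00204) with vehicle and NSC in edgeR. *Aurkb* had the largest rise of the kinases with vehicle in the main fit, 7.15 (standard error 0.80, adjusted p = 0.000778, edgeR). It rose by 7.56 with NSC (standard error 0.81, adjusted p = 0.000398, edgeR). Under alternatives *Bub1* reached up to 7.75 with vehicle, and *Aurkb* at most 7.43. The 3 baseline libraries of *Aurkb* held only 11 counts in all against 1836 with vehicle, a ratio of 151 after scaling to depth. The exact 95% interval of that ratio, 84.0 to 302, covers counting error only. The direct difference was 0.88 for *Aurka* (-0.69 to 2.44) and 0.40 for *Aurkb* (-0.77 to 1.57), the lowest of the 10. Without NSC replicate 2 the *Aurkb* estimate turned to -0.09.

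Of the 3 spindle checkpoint kinases, *Bub1* and *Ttk* were barely detected at baseline. *Bub1* (ENSMUSG00000027379, chromosome 2, 127801122 to 127831865, minus strand), which recruits checkpoint proteins to kinetochores, had 4, 2 and 0 counts in the baseline libraries, so that 2 of the 3 lay under the floor of 3 counts. At 40 h it was at 7.86, 7.10 and 7.97 CPM with vehicle and at 4.14, 18.7 and 18.0 CPM with NSC. The ratio of summed counts to baseline was 121 with vehicle (exact 95% interval 55.3 to 330) and 226 with NSC (104 to 618). The fitted log2 fold changes were 6.83 (standard error 0.80, adjusted p = 0.000602) and 7.66 (standard error 0.80, adjusted p = 0.000223) in edgeR, and both depend on the prior count of a nearly empty baseline.

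*Bub1b* (ENSMUSG00000040084, chromosome 2, 118598211 to 118641591, plus strand) encodes BUBR1, a part of the mitotic checkpoint complex. It was better detected at baseline than *Bub1*, at 0.663, 0.824 and 0.396 CPM, and reached 14.04, 18.8 and 11.8 CPM with vehicle and 6.63, 44.1 and 35.2 CPM with NSC. Its log2 fold change was 4.55 with vehicle (standard error 0.75, adjusted p = 0.00465) and 5.49 with NSC (standard error 0.77, adjusted p = 0.00159) by edgeR. *Ttk* (ENSMUSG00000038379, chromosome 9, 83834689 to 83872389, plus strand), the MPS1 kinase at the head of the checkpoint, had 2, 5 and 4 counts at baseline. It reached 11.6, 12.1 and 9.30 CPM with vehicle and 6.06, 29.98 and 24.1 CPM with NSC, with log2 fold changes of 6.52 (standard error 0.73, adjusted p = 0.000573) and 7.38 (standard error 0.73, adjusted p = 0.000208; edgeR). For all 3 checkpoint kinases the lowest liver at 40 h was NSC replicate 1 and the highest was NSC replicate 2. Their direct differences were 0.83, 0.94 and 0.86 for *Bub1*, *Bub1b* and *Ttk*, with adjusted p of 0.378, 0.414 and 0.342 in edgeR.

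*Nek2* (ENSMUSG00000026622, chromosome 1, 191821444 to 191833050, plus strand), whose product splits the centrosomes before the spindle forms, was the kinase with the highest baseline and the smallest rise. Its baseline livers were uneven at 5.69, 1.83 and 5.05 CPM, the vehicle livers at 40 h stood at 37.0, 38.7 and 24.9 CPM, and the NSC livers at 14.9, 88.3 and 78.2 CPM. The groups at 40 h still lay wholly above baseline. The log2 fold change was 3.00 with vehicle (standard error 0.71, adjusted p = 0.0216) and 3.85 with NSC (standard error 0.74, adjusted p = 0.00638) in edgeR. Leaving out baseline replicate 1, 2 or 3 put the vehicle adjusted p of *Nek2* at 0.0555, 0.0655 and 0.0672 (edgeR), with log2 fold changes of 3.29, 2.64 and 3.16. Leaving out vehicle replicate 1 or 2 at 40 h put it at 0.0639 and 0.0508 (edgeR), with 2.93 and 2.89. With the replicate block the vehicle adjusted p was 0.0770, and with GC correction added it was 0.0921 with vehicle and 0.0588 with NSC (edgeR). Between treatments *Nek2* differed by 0.85, with an interval of -0.67 to 2.37.

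*Melk* (ENSMUSG00000035683, chromosome 4, 44300876 to 44364675, plus strand), a kinase of the AMPK-related family that is expressed in dividing cells, had 1, 3 and 3 counts at baseline, at or below the floor in each library. It stood at 5.31, 5.73 and 4.47 CPM with vehicle and at 2.73, 10.97 and 8.96 CPM with NSC. The ratio of summed counts to baseline was 71.4 with vehicle (exact 95% interval 34.4 to 178) and 109 with NSC (52.4 to 271). The fitted changes were 6.06 (standard error 0.62, adjusted p = 0.000113) and 6.60 (standard error 0.62, adjusted p = 5.08e-05) in edgeR. The direct difference was 0.54, with an interval of -0.34 to 1.43.

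**Figure D2:**
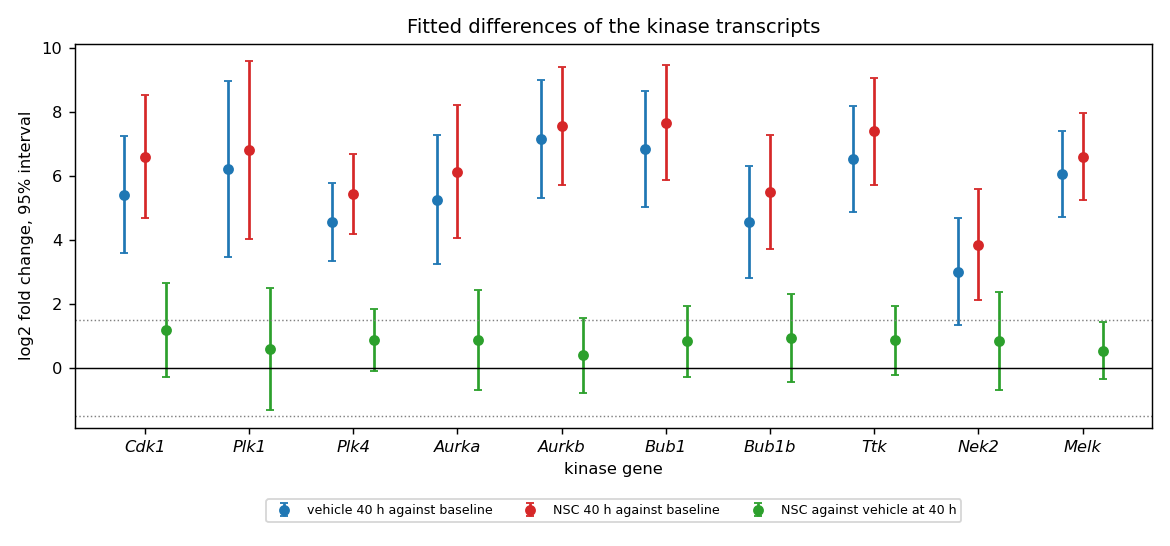
Fitted log2 fold changes of the 10 kinases with 95% intervals in the 3 comparisons, from the edgeR fit of 9 libraries. Dotted lines mark the fold change threshold of 1.5 in either direction. Against baseline every interval lies above 0, from *Nek2* at 3.00 to *Bub1* at 7.66, and in the direct comparison every estimate lies between 0.40 and 1.19 with an interval that includes 0.

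The direct comparison turned on 1 liver. All 10 estimates were positive, with a median of 0.86 where the median of all genes was 0.02, and adjusted p ran from 0.289 to 0.722 in edgeR. No gene at all was called higher with NSC (0% of 15024), and 3 genes (0.02%) were called in either direction. Every NSC liver lay above every vehicle liver for 0 of 10 kinases, against 10.3% of all genes. Instead, NSC replicate 1 lay below every vehicle liver and NSC replicates 2 and 3 above every one of them for 10 of 10 kinases, an arrangement that 5.46% of all genes shared. Averaged over the kinases, log2 CPM minus the vehicle mean at 40 h was -1.20 in NSC replicate 1, 1.37 in replicate 2 and 1.15 in replicate 3, whereas the vehicle livers themselves lay between -0.24 and 0.14. The coefficients of variation were 52.2% to 77.8% in the NSC group and 4.0% to 37.6% in the vehicle group at 40 h.

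Without NSC replicate 1, 8 of 10 kinases were higher with NSC at an adjusted p under 0.05 in edgeR, where 3.73% of 15390 genes were. *Cdk1* alone also passed the fold change threshold, with 1.67 (adjusted p = 8.20e-05, edgeR), against 0.559% of all genes called higher. By adjusted p, *Aurka* and *Ttk* came next, at 0.000556 and 0.00214 in edgeR with differences of 1.38 and 1.29, and by size *Bub1b* came next, at 1.41 (adjusted p = 0.00365, edgeR). *Nek2*, at 1.31, and *Plk1*, at 1.12, had adjusted p of 0.0928 and 0.0707 in the same edgeR fit. NSC replicate 1 was singled out by these same kinase values, and leaving it out was bound to raise the estimates. These p-values therefore give no independent support for an effect of NSC. With NSC replicate 2 or replicate 3 left out instead, 0 of 10 reached an adjusted p under 0.05 in edgeR, and the median difference was 0.47 and 0.62. The rise over baseline did not rest on a single NSC liver, since 10 of 10 kinases were called with any of the 3 left out.

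The kinases were not lowered evenly in NSC replicate 1. In log2 CPM relative to the vehicle mean, *Plk1* stood at -2.43 and *Aurka* at -1.73, whereas *Plk4* was at -0.35, *Ttk* at -0.84, *Bub1* at -0.87 and *Melk* at -0.90. GC content was higher in the former, at 55.98% in *Plk1* and 51.39% in *Aurka*. It was 42.08% in *Plk4*, 43.02% in *Ttk*, 41.04% in *Bub1* and 45.79% in *Melk*. The order was not strict, since *Aurkb*, with 52.51%, stood at -1.46, above *Aurka*. Whether GC content accounts for this unevenness, or for the ratios that follow, was not tested. Per length, *Plk1* exceeded *Plk4* by 6.38, 4.80 and 2.76 times in the vehicle livers at 40 h and by 4.15 and 4.43 times in NSC replicates 2 and 3. In NSC replicate 1 the ratio of their FPKM was 1.02. At baseline it was 1.17, 0.798 and 3.42, but these ratios rest on only 11, 3 and 9 counts of *Plk1* and 25, 10 and 7 of *Plk4*. *Aurka* over *Plk4* was 2.32 in NSC replicate 1, against 5.16 to 7.21 in the other livers at 40 h and 2.04, 6.48 and 5.96 at baseline. In NSC replicates 2 and 3 the order among kinases differed, with *Cdk1* highest relative to vehicle (1.60 and 1.75) and *Aurkb* (1.06 and 0.62) and *Melk* (1.08 and 0.79) lowest.

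Other cell cycle genes were set beside the kinases in the same livers. Of 20 mitotic genes that are not kinases, such as *Tacc3*, *Aspm* and *Dlgap5*, 20 of 20 lay below every vehicle liver in NSC replicate 1, as did 36.3% of all genes, with a mean difference of -1.19. In NSC replicates 2 and 3, 20 of 20 lay above every vehicle liver, against 33.5% and 34.5% of all genes, with means of 1.63 and 1.25. Of 20 S phase genes, covering the MCM helicase, nucleotide supply and replication fork, 5 lay below the vehicle livers in NSC replicate 1, 8 within their range and 7 above, with a mean of 0.08, where 36.3% of all genes lay below and 31.2% above. In NSC replicates 2 and 3, 16 and 12 of the 20 S phase genes lay above the vehicle livers, against the same 33.5% and 34.5% of all genes, with means of 0.52 and 0.34. The S phase means of the vehicle livers were -0.11 to 0.16, a range that held NSC replicate 1 and lay below NSC replicates 2 and 3. Sums of some cell type markers also stood apart in this liver. The sums hold every marker found among the genes listed, and the brackets give how many of them were tested. Macrophage markers (11 of 12 tested) summed to 714 CPM in NSC replicate 1, against 399 and 439 CPM in the other NSC livers and 219 to 368 CPM in vehicle livers at 40 h. Endothelial markers (10 of 10) summed to 389 CPM against 212 and 248 CPM, with 203 to 257 CPM for vehicle. Neutrophil markers (6 of 8) summed to 25.6 CPM against 16.99 and 14.6 CPM, with 9.80 to 19.4 CPM for vehicle. Stellate markers (12 of 12) stood at 661 CPM against 346 and 392 CPM, within the 488 to 678 CPM of vehicle livers, and the hepatocyte sum was 108056 CPM. Lymphocyte markers (7 of 10) summed to 18.1 CPM against 9.62 and 10.2 CPM, with 6.47 to 8.92 CPM for vehicle. Cholangiocyte markers (6 of 7), at 99.7 CPM against 135 and 95.01 CPM, and erythroid markers (6 of 8), at 143 CPM against 147 and 246 CPM, did not stand apart in it. The part of these cell types in the kinase values was not tested.

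**Figure D3:**
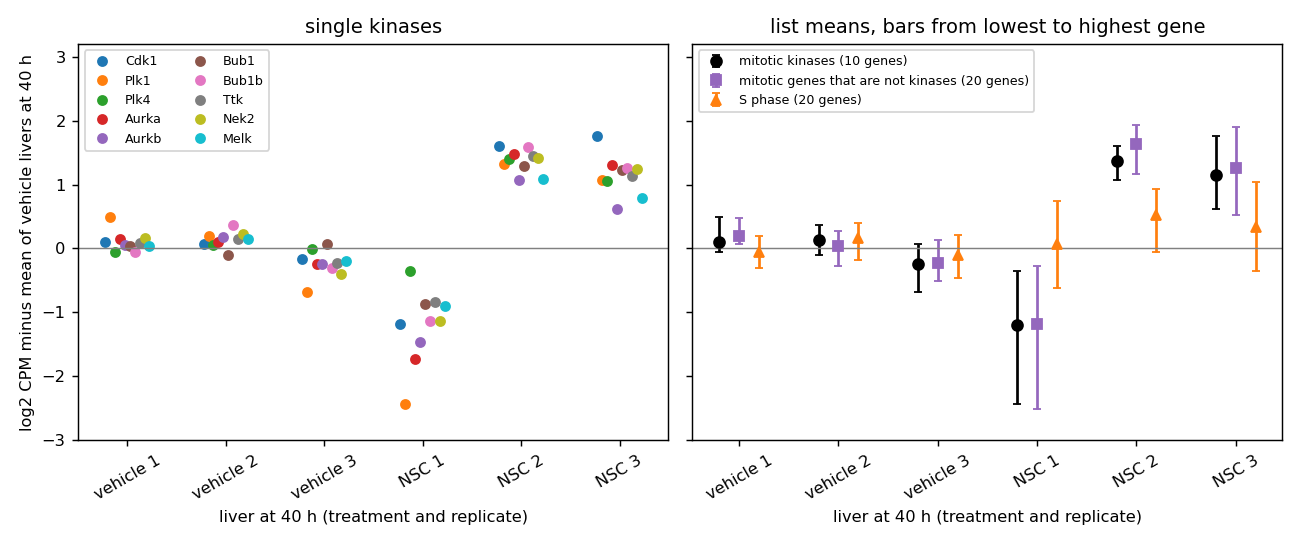
Log2 CPM in the 6 livers at 40 h minus the mean of the 3 vehicle livers, for single kinases (left) and as means of 3 gene lists with bars from the lowest to the highest gene (right). In NSC replicate 1 the kinases average -1.20 and the other mitotic genes -1.19 while the S phase genes average 0.08.

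Levels of different kinases were compared per length, as the deposited FPKM. At baseline the order began with *Nek2*, at 0.895 ± 0.441 FPKM (SD, n = 3), then *Cdk1* at 0.358 ± 0.0334 and *Aurka* at 0.272 ± 0.0495, and it ended with *Bub1* at 0.0138 ± 0.0139. *Nek2* ranked 1 in all 3 baseline livers, although in replicate 2 it stood at 0.391 FPKM, within the range reached by *Cdk1*. In vehicle livers at 40 h the order was *Cdk1* at 15.5 ± 2.11 FPKM, *Aurka* at 10.6 ± 1.86, *Plk1* at 8.11 ± 3.43, *Nek2* at 7.23 ± 1.70, *Aurkb* at 5.64 ± 0.821, *Bub1b* at 3.37 ± 0.647, *Ttk* at 2.18 ± 0.330, *Plk4* at 1.73 ± 0.0725, *Bub1* at 1.71 ± 0.224 and *Melk* at 1.69 ± 0.217 (SD, n = 3 each). *Cdk1* lay apart from *Aurka*, as did *Aurkb* from *Bub1b*, *Bub1b* from *Ttk* and *Ttk* from *Plk4*. Ranges overlapped for the 5 other neighbouring pairs of 9, which join *Aurka*, *Plk1*, *Nek2* and *Aurkb* at the top and *Plk4*, *Bub1* and *Melk* at the bottom. In NSC livers all 9 neighbouring pairs overlapped, and *Cdk1*, for example, ran from 7.64 to 56.7 FPKM. Within each liver, however, *Cdk1* ranked 1 in all 6 livers at 40 h. *Nek2* passed from rank 1 at baseline to ranks 2 to 4, and *Plk4* from ranks 5 and 6 to ranks 7 to 10.

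**Figure D4:**
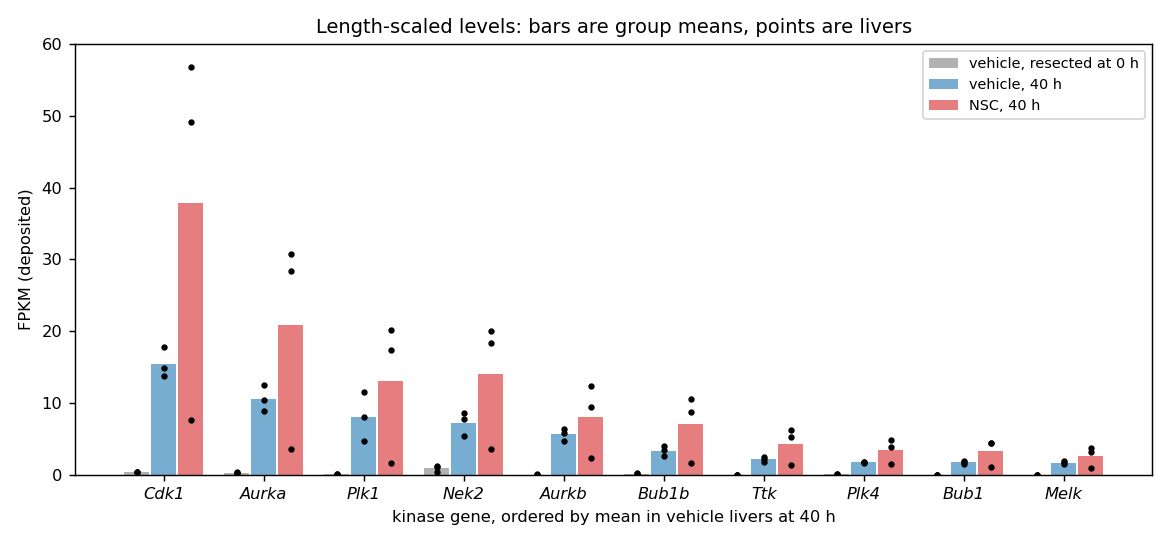
Deposited FPKM of the 10 kinases on a linear axis from 0, with bars for group means, points for single livers and genes in the order of the vehicle means at 40 h. *Cdk1* leads at 40 h in both treatments, and the points of the NSC group spread from below to above those of the vehicle group.

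Most activators and cofactors of the kinases rose after hepatectomy. Of 21 activators and cofactors, 16 were called higher and 0 lower in vehicle livers, with a median log2 fold change of 3.84, where 5.03% of all genes were called higher. With NSC 18 were called higher and 0 lower, with a median of 4.46, against 5.38% of all genes. *Mad2l1*, a checkpoint protein, went from 1.33, 1.71 and 1.78 CPM at baseline to 23.2, 20.8 and 24.9 CPM with vehicle and 18.1, 65.0 and 71.1 CPM with NSC, rising by 3.84 and 5.0. *Casc5*, the kinetochore scaffold of BUB1, had 0 CPM in 2 of 3 baseline libraries and reached 9.76, 8.76 and 8.93 CPM with vehicle, and *Incenp*, the scaffold of Aurora B, rose by 3.98. *Cdc25a*, a phosphatase that activates cyclin-dependent kinases from S phase on, rose by 1.63 with either treatment, and at 8.94, 12.1 and 8.41 CPM its NSC livers overlapped the vehicle livers at 10.9, 10.1 and 8.34 CPM. *Sass6*, which builds centrioles with PLK4, rose by 1.82 with vehicle and 2.44 with NSC, and *Cep192*, a centrosome scaffold that recruits PLK4, had 1.41 (adjusted p = 0.00288, edgeR, under the fold threshold) and rose by 1.97. In the direct comparison 0 of 21 were called by edgeR or DESeq2, 5 had an unadjusted p under 0.05 in edgeR (23.8% of the list, against 19.5% of all genes), and the median was 0.82. *Mad2l1* and *Cks2*, a subunit of the CDK1 complex, had estimates of 1.16 and 1.00, and *Cep152*, a receptor of PLK4 at the centriole, had -0.57. Without NSC replicate 1, 6 of the 21 were called higher, against 0.559% of all genes. In all 6 this liver was the lowest of the NSC livers, so leaving it out was bound to raise their estimates. As for the kinases, the count gives no independent support for an effect of NSC.

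A list of opposing genes held 17 kinases, phosphatases and inhibitors. Most oppose mitotic kinases, but *Arpp19* and *Ensa* inhibit PP2A, itself among these phosphatases. Of the 17, 2 were called higher in vehicle livers (11.8%, against 5.03% of all genes) and 1 with NSC (5.88%, against 5.38%), with none lower. The medians were 0.09 and 0.50. The share called with NSC was near that of all genes. Without the fold threshold, 12 (70.6%) had an unadjusted p under 0.05 in edgeR with NSC, against 45.2% of all genes. With vehicle 5 (29.4%) did, against 37.0%. *Pkmyt1*, which holds CDK1 inactive at membranes, rose from 1.30, 1.71 and 1.65 CPM to 9.31, 15.8 and 7.57 CPM with vehicle and 4.92, 9.85 and 10.5 CPM with NSC, by 2.81 and 2.43 on the log2 scale. *Cdkn1a*, which encodes the CDK inhibitor p21, rose by 2.00 with vehicle (adjusted p = 0.0295, edgeR), from an uneven baseline of 35.7, 6.53 and 20.4 CPM to 100, 90.9 and 59.7 CPM, and with NSC it was at 60.2, 61.5 and 59.6 CPM, with an estimate of 1.53 (adjusted p = 0.0540, edgeR). That vehicle count fell to 1 when baseline replicate 3, vehicle replicate 1 or 2 at 40 h, or NSC replicate 1 was left out, and the NSC count rose to 2 without baseline replicate 1 or 2. In the direct comparison 0 of 17 were called by either tool, where 0.02% of all genes were, and 9 (52.9%) had an unadjusted p under 0.05 in edgeR, against 19.5% of all genes. The smallest p belonged to *Arpp19*, *Ppp2r1a* and *Ppp6c*. *Arpp19*, an inhibitor of PP2A and so not itself an opponent of the kinases, had 0.51. *Ppp2r1a*, the PP2A scaffold, had -0.44, and *Ppp6c*, the catalytic subunit of the phosphatase that counters Aurora A, had 0.46.

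Among 13 other kinases with roles in mitosis, 4 were called higher with either treatment and 0 lower, against 5.03% of all genes called higher with vehicle and 5.38% with NSC. These were *Mastl*, the Greatwall kinase, at 5.36 with vehicle and 6.54 with NSC, *Pbk* at 7.62 and 8.57, *Gsg2*, the histone H3 kinase haspin, at 3.53 and 4.55, and *Chek1*, the DNA damage checkpoint kinase, at 2.85 and 3.65. The medians of the list were 0.41 and 0.76, and the other 9 genes had estimates from -0.12 to 0.93 with vehicle and from 0.01 to 1.33 with NSC, such as 0.21 and 0.73 for *Nek7*. Alone of the 4 called genes, *Chek1* differed from the 10 kinases in NSC replicate 1, where it stood at 5.73 CPM, above the vehicle livers at 4.65, 4.17 and 3.88 CPM. Of the uncalled genes of the list, *Nek7*, *Nek9*, *Csnk2a1*, *Stk10* and *Slk* also lay above every vehicle liver there, as did 31.2% of all genes. The direct comparison called 0 of 13 by edgeR or DESeq2, with 4 at an unadjusted p under 0.05 in edgeR against 19.5% of all genes, and without NSC replicate 1 it called 1, *Mastl*, at 1.62, against 0.559% of all genes. *Mastl* too was lowest in that NSC liver, so leaving it out was bound to raise the estimate.

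Relatives of the same kinase families that act outside mitosis were the last list. Of 25, 22 were tested and *Aurkc*, *Nek5* and *Nek11* fell under the filter. None was called in vehicle livers (median -0.10), by edgeR or DESeq2, where 5.03% of all genes were called higher, 8 of 22 (36.4%) had an unadjusted p under 0.05 in edgeR, near the 37.0% of all genes, and 1 was called in either direction when vehicle replicate 1 at 40 h was left out. With NSC, 1 was called higher and 2 lower against baseline (4.55% and 9.09% of the 22, median -0.07), where 5.38% of all genes were called higher and 2.75% lower. *Nek3* rose by 1.91, *Plk5* fell by 1.59 and *Plk3* fell by 1.95 on the log2 scale. The NSC count fell to 1 without NSC replicate 2. *Plk3*, a Polo-like kinase induced by stress and growth signals, was at 168, 140 and 130 CPM at baseline, at 117, 149 and 76.3 CPM with vehicle and at 43.9, 36.7 and 32.6 CPM with NSC. The NSC livers, replicate 1 included, lay below every other liver, an arrangement whose share of all genes was not counted. *Plk3* was the single gene of these lists called between treatments by edgeR (DESeq2 called 2 relatives), at -1.60 on the log2 scale (SE 0.23, adjusted p = 0.0470 in edgeR), a call that was lost when any library other than vehicle replicate 3 or NSC replicate 1 at 40 h was left out (adjusted p from 0.0521 to 0.210, edgeR). *Prkaa2*, a catalytic subunit of AMPK, and *Sik1*, its salt-inducible relative, had the next smallest p, with estimates of 0.64 and -1.63 and adjusted p of 0.0849 and 0.154 in edgeR.

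**Figure D5:**
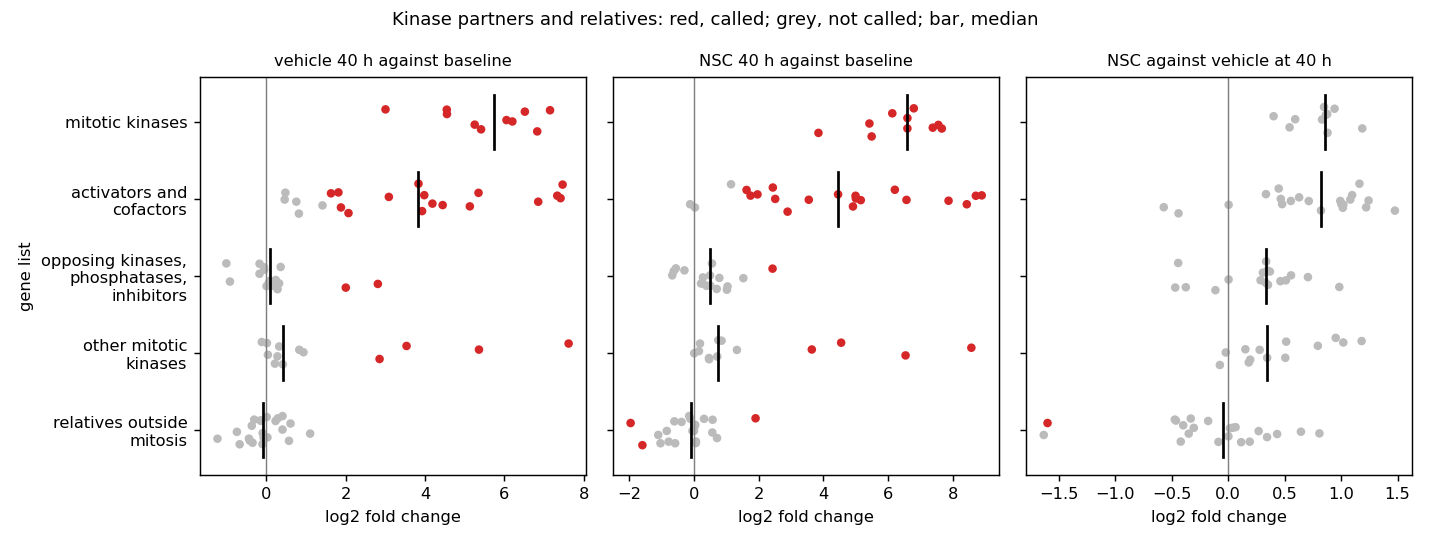
Log2 fold changes of single genes in the kinase group and 4 related lists, 1 panel per comparison, with red for called genes, grey for the others and a bar for the median. The activators follow the kinases (medians 3.84 and 4.46 against baseline), the relatives outside mitosis centre near 0, and *Plk3* is the 1 red point in the direct comparison.

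Likeness to the kinases was measured as the root mean square difference in log2 CPM, each gene centred on its own mean, from the mean kinase profile. Over all 9 libraries the nearest non-members were *Kif22* (0.146), *Ccna2* (0.147), *Aspm* (0.178), *Anln* (0.213) and *Mastl* (0.227), which encode a chromokinesin, cyclin A2, a spindle pole protein, anillin and Greatwall. Among the kinases themselves *Cdk1* was nearest to the mean profile at 0.221 and *Nek2* farthest at 1.06. Over the 6 livers at 40 h alone, the nearest were *Kif4* (0.076), *Tacc3* (0.077), *Dlgap5* (0.082), *Ncaph* (0.111) and *Reep4* (0.113). There *Nek2* moved from farthest to nearest of the kinases, at 0.090, and *Plk1* was farthest at 0.508, followed by *Plk4* at 0.346. The farthest pair at 40 h was *Plk1* and *Plk4* (0.848), and the nearest was *Nek2* and *Bub1b* (0.129).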

How the data were processed

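RNA-Seq of 9 whole liver samples was analysed, in 3 groups of 3 taken from the sample labels. Libraries were made from polyadenylated RNA with a stranded kit. The authors aligned reads with STAR 2.6.1 and assigned them to genes with featureCounts of Subread 1.5.1, per the submitters' processing notes, and deposited raw counts per gene and library without pooling. The deposited FPKM are those counts scaled by the authors to gene length and library total, and recomputing them from the counts differed by at most 0.000454 (relative) for the 10 kinases. The notes name the human build hg38, whereas the genes listed carry mouse Ensembl identifiers, 42462 of 43346 of which are in GENCODE M21 (GRCm38), and 8 of the 10 kinases have the same start and end there (all but *Cdk1* and *Plk1*). Gene positions in the text are those of the deposited table, and promoter positions are those of the RefSeq windows. The paper's methods place the 1st dose a day before surgery.

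The count model was edgeR 4.0.16 (R 4.3.3), with TMM factors, filterByExpr (15024 genes) and 1 robust quasi-likelihood fit of all libraries with the group as the only term. P-values were adjusted over all genes tested by the Benjamini-Hochberg method, and calls needed an adjusted p under 0.05 together with a log2 fold change beyond 1.5 in either direction. The standard error (SE) was the size of the log2 fold change divided by the root of the F statistic. Levels are TMM-scaled CPM, and profiles use log2 CPM with a prior count of 2. Marker sums use CPM of library size and include markers under the filter. Exact binomial intervals of count ratios (95%), like the 3-count floor, reflect counting error alone. Where a symbol had more than 1 row (*Csnk2a1*), the protein-coding row with more counts was used in the lists. Cell-type markers not tested were under the filter, and *Adgre1* was not found under that symbol. The procedure was tested on simulated data. Plots used Python 3.11.15, pandas 2.3.3 and matplotlib 3.10.9.

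The members and lists were chosen with earlier results of these data known. Named genes were the 10 kinases, per list up to 4 called genes of lowest adjusted p against baseline and up to 3 of smallest p in the direct comparison, and the 5 nearest profiles over 9 and over 6 libraries. Alternatives were DESeq2 1.42.0, RLE factors, library size only, 2 other count filters, separate fits of each group pair, a replicate block, other fold thresholds, correction for GC content (loess span 0.5, known for 99.2% of genes) and each library left out in turn. The labels do not say that same-numbered samples share a mouse, and replicates are separate mice only as far as the labels call them separate samples. Chi-square per gene between replicates showed no duplicated library.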

Additional observations from a re-analysis of the deposited data

Results flagged for a closer look

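*Plk3*, of the Polo-like family but outside the mitotic kinases, differed in level between the 2 treatments at 40 h by the direct test. The log2 fold change between NSC and vehicle livers was -1.60 (edgeR quasi-likelihood test, adjusted p = 0.0470). With no NSC tissue from 0 h, a different response to surgery cannot be told apart from a difference present before it. Against the vehicle baseline the log2 fold change of *Plk3* was -0.35 with vehicle and -1.95 with NSC. Over 20 alternatives the direct estimate ran from -1.82 to -1.36, with adjusted p from 3.89e-07 to 0.335, and it was called in 9 of them. The 9 include the other fold thresholds, which reuse the main estimate of *Plk3*. It was lower in 3 of 3 NSC livers than in every vehicle liver. The share of all genes lying so was not counted, while 10.3% had every NSC liver above every vehicle liver at 40 h. Groups of 3 libraries were too small for a test of single outlying samples.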

How the results depend on the processing

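The 10 calls with NSC against baseline held under every alternative that fitted all 10 genes, except that GC correction with the replicate block put *Nek2* at 3.61 (adjusted p = 0.0588, edgeR). A minimum of 10 counts in every library left 4 kinases (*Cdk1*, *Aurka*, *Bub1b*, *Nek2*), and 4 were called against baseline in each treatment. With 1 library left out, 9 to 10 kinases were called with vehicle, 10 with NSC, and 0 to 1 between treatments, the 1 being *Cdk1* at 1.67 without NSC replicate 1. Correlations of same-numbered deviations were -0.048 to 0.134, 1 of 9 over 0.1, and not every sample was nearest to its own number. With groups of 3 libraries these values cannot decide whether the replicate numbers pair the samples. The replicate block put *Nek2* with vehicle at 2.99 (adjusted p = 0.0770, edgeR), 3.09 with GC correction added (0.0921), and changed no other kinase call. *Melk* between treatments was at -0.0392 under GC correction with the block, and *Aurkb* ran from -0.0861 without NSC replicate 2 to 0.849 without NSC replicate 1. The causes were not tested. Library size only moved the median of all genes between treatments to 0.14, and GC correction to -0.23. Relative to the median of all genes, the kinase median was 0.82 and 0.62, against 0.84 in edgeR with TMM. Of 582 kinase estimates under alternatives, 571 kept direction and call. These include the other fold thresholds, which reuse the estimates of the main fit and so keep direction by construction. Among the lists, opposing genes with NSC numbered 2 under DESeq2 and library size only, and relatives between treatments 2 under DESeq2 and 0 under library size only. Leaving out 1 library gave, against baseline with vehicle and with NSC, 14 to 16 and 17 to 18 activators, 1 to 2 and 1 to 2 opposing genes, 4 and 4 to 5 other kinases, and 0 to 1 and 1 to 3 relatives. Between treatments it gave 0 to 6, 0, 0 to 1 and 0 to 2. With 3 livers a group, low baseline counts (6 in all for *Bub1*) and the spread of the NSC livers limit precision, so intervals of the direct differences reach from -1.32 to 2.64.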
